A study of Mus musculus with 18 samples.

Results

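The SR splicing factors were followed here through the polysome gradients of mouse embryonic stem cells (ESCs). The family was taken as the listed SRSF genes Srsf1, Srsf2, Srsf3, Srsf4, Srsf5, Srsf6, Srsf7, Srsf9, Srsf10 and Srsf11, whose symbols were matched to the Ensembl gene identifiers of the count table. They were 10 of the 51467 genes in the table, and all 10 passed the filter on low counts. The cells were V6.5 ESCs, kept in serum medium with LIF plus the inhibitors PD0325901 and CHIR99021 (2i), and were either wild-type or knockout for the RNA helicase gene Ddx6 (Ddx6 KO). Lysates of cycloheximide-treated cells were separated on sucrose gradients. The fractions taken were the monosome, a low polysome of 2 to 4 ribosomes and a high polysome of 4 ribosomes and above. There were 3 gradients for each genotype, which gave 18 libraries in 6 groups of 3. Ddx6 KO gradient 1 came from clone 1 and gradients 2 and 3 came from clone 2, so clone 1 was represented by a single gradient. Both clones were made with a single guide RNA in the same parental line.

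SR proteins bind exonic sequences through an RNA recognition motif and recruit the spliceosome through a tail rich in arginine-serine dipeptides, the RS domain. Kinases of the SRPK and CLK families phosphorylate the RS domain, which sets where in the cell the protein resides and how active it is. Several members shuttle to the cytoplasm, where they act in mRNA export and translation. Many SR proteins limit their own expression by splicing their own pre-mRNA into forms with an early stop codon, which are removed by nonsense-mediated decay (NMD). DDX6 acts in translational repression and in mRNA decapping. The experiment asked how the association of mRNAs with ribosomes differed when it was lost.

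The coding sequence of the RS domain is shown for 5 members, since the members share this repeat and differ in its extent. Each line gives the stretch that encodes the longest uninterrupted run of alternating arginine and serine codons, in capitals, with neighbouring codons in lower case. The sequences are from Gencode M21 transcripts on GRCm38. They lie within coding exons at chr11:116852250-116852330 on the minus strand for Srsf2, chr11:88049454-88049531 on the plus strand for Srsf1, chr12:80949787-80949849 on the plus strand for Srsf5, chr3:158017827-158017880 on the minus strand for Srsf11 and chr5:115332615-115332659 on the plus strand for Srsf9.
Srsf2: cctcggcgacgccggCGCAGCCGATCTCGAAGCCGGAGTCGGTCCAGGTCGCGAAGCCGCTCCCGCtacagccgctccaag
Srsf1: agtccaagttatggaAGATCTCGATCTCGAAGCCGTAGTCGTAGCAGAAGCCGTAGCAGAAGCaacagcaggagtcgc
Srsf5: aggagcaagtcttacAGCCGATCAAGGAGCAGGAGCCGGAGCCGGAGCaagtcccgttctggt
Srsf11: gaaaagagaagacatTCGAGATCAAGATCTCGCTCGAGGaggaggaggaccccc
Srsf9: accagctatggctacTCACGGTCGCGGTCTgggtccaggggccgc

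The run was longest in Srsf2, at 17 of 221 residues, and shortest in Srsf9, at 5 of 222 residues. Arginine-serine and serine-arginine dipeptides ranged from 4.05 per 100 residues in Srsf9 to 23.53 per 100 in Srsf2. The median of the members was 16.54, against a median of 0.78 over the protein-coding genes tested. The members had short coding regions, with a median of 732 nt including the stop codon, against 1359 nt over the same genes. Srsf3 had the shortest coding region, 495 nt, and Srsf11 the longest, 1536 nt. An NMD transcript is annotated for 9 of the 10 members, all but Srsf10, and for 28.8% of the 11769 protein-coding genes tested. A retained-intron transcript is annotated for 8 members, all but Srsf9 and Srsf10, and for 59.5% of those genes. The 3′ end counts are summed over all isoforms of a gene that end in its annotated exons, so the forms with and without an early stop codon could not be told apart here.

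ESCs express the ESCC miRNAs, which share a seed, and DDX6 acts downstream of miRNAs, so sites for them in the members are given. The mature sequence of mmu-miR-294-3p (RefSeq, GRCm38.p6, chr7:3220691-3220712, plus strand) is printed with the seed at bases 2 to 8 in capitals, followed by the sites in the 3′ UTRs of Srsf1 (chr11:88052942-88052969, plus strand) and Srsf10 (chr4:135869224-135869250, plus strand) with the matched letters in capitals.
mmu-miR-294-3p: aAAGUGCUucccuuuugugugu
Srsf1: taaccacgaaAGCACTTAaatctcttta
Srsf10: aatattactcAGCACTTgctgtgccaa

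The sense strand of each annotated 3′ UTR was searched for AGCACTTA, the 8mer, and for the 7mers AGCACTT and GCACTTA, both of which are contained in it. Srsf1 was the only member with the 8mer, which 3.31% of the protein-coding genes tested also held. With the 7mers included, Srsf1 and Srsf10 had a site, as did 19.2% of those genes. A match is a description of the sequence and was not tested as a site of repression.

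Library depth ranged from 2543617 to 11474550 counts, with the wild-type monosome libraries the shallowest, and the members together took 0.171% to 0.397% of a library. In the wild-type libraries Ddx6, the targeted gene, was at 143 to 212 CPM (counts scaled to library size by TMM, which sets the typical gene to no change between libraries). It was at 9.68 to 26.7 CPM in the 6 libraries of clone 2 and at 55.3 to 82.7 CPM in the 3 of clone 1. The 3′ end tags lie outside the edited internal exon, so these values measure the remaining transcript and do not check the edit. All 8 ESC markers were detected, with a summed level of 1804 to 3349 CPM in wild-type and 1737 to 3190 CPM in Ddx6 KO libraries. Of these, 2 (Klf4 and Nanog) were raised and 3 (Tfcp2l1, Sall4 and Sox2) lowered in Ddx6 KO over the average of the fractions. The test is that described below, with 30.6% of all genes raised and 31.5% lowered. Fibroblast, primitive endoderm and trophectoderm markers summed to at most 11.1 CPM in any library. The 4 primed epiblast markers summed to 103 to 149 CPM in wild-type and 32.7 to 80.4 CPM in Ddx6 KO libraries, with 1 of them at 0 throughout. Their part in the results was not tested. CPM values of 3′ end tags are not divided by length, since a transcript gives tags at its end only, and are compared between genes on that scale.

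The order of the members by abundance changed with the fraction. In wild-type monosomes Srsf2, the nuclear speckle protein SC35, was the most abundant member, at 726, 705 and 661 CPM in gradients 1 to 3, and Srsf4 was the least abundant, at 98.8, 74.8 and 90.7 CPM. The 8 members in between lay within a narrow range, from a mean of 370 ± 25.2 CPM (SD, n = 3) for Srsf10 to 234 ± 8.71 CPM (SD, n = 3) for Srsf5. Most neighbours in that order overlapped in their libraries, and only Srsf2 from Srsf10, Srsf9 from Srsf11 and Srsf5 from Srsf4 were separate. In the wild-type low polysome the order changed, and Srsf9 stood first at 869, 743 and 671 CPM, above Srsf3 at 218 ± 25.7 CPM (SD, n = 3). In the wild-type high polysome Srsf3, Srsf2, Srsf1 and Srsf7 led, at means of 716 ± 127, 634 ± 85.7, 599 ± 114 and 552 ± 47.1 CPM (SD, n = 3). Each of these overlapped its neighbour in that order. Srsf5 was last there, at 36.7, 44.3 and 37.4 CPM.

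**Figure D1:**
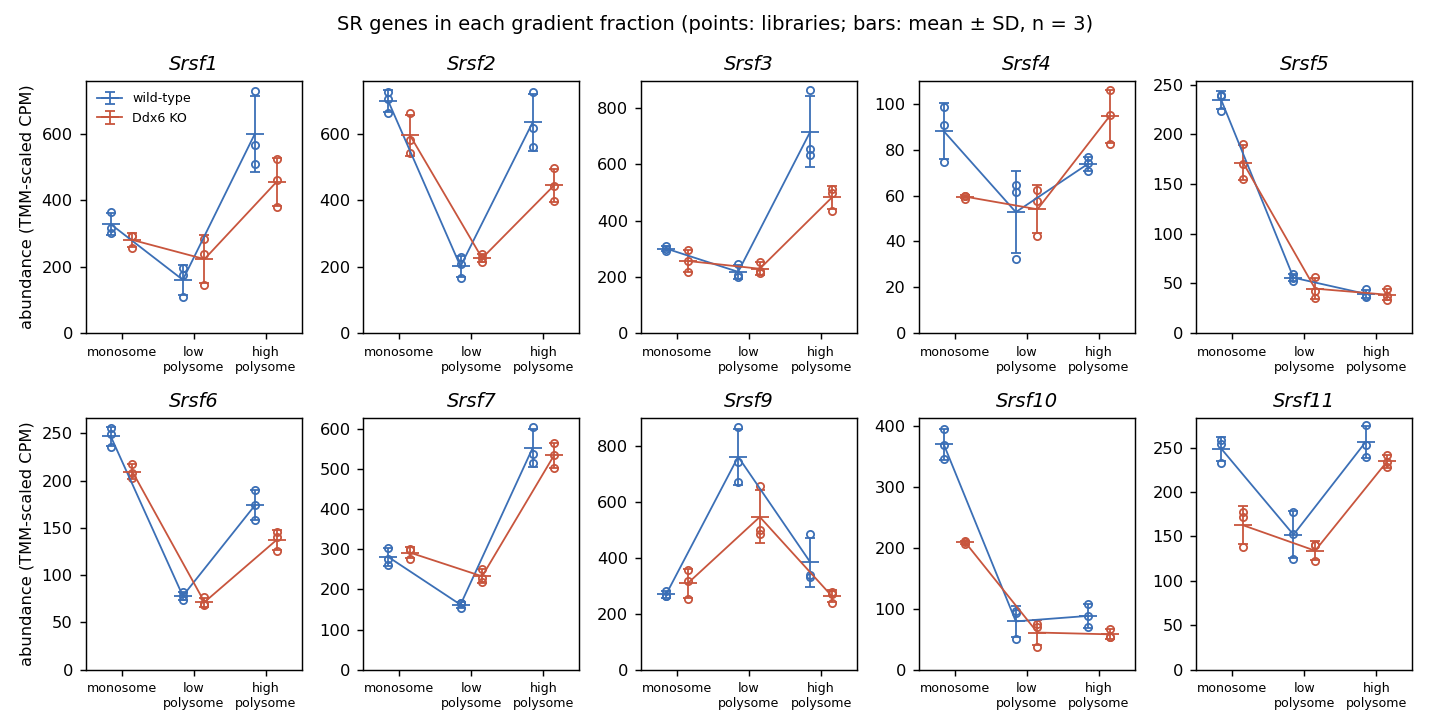
Abundance of the 10 SR genes (TMM-scaled CPM, vertical axis from 0) in the 3 fractions of wild-type (blue) and Ddx6 KO (red) gradients. Circles are libraries and bars are the mean ± SD (n = 3). Most members dip in the low polysome, Srsf9 peaks there, and Srsf5 and Srsf10 are high in the monosome alone.

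Translation level, the ratio of high polysome to monosome abundance, differed between single members in wild-type cells. The tests are those of limma-voom over all 12705 genes, with Benjamini-Hochberg adjustment. Srsf1, Srsf3, Srsf7 and Srsf9 were higher in the high polysome, Srsf5, Srsf6 and Srsf10 were lower, and Srsf2, Srsf4 and Srsf11 did not pass the test. Thus 4 of the 10 members were higher, against 28.9% of all genes tested, and 3 were lower, against 32.2%. These counts lie near the shares over all genes. The median of the members was -0.05 on the log2 scale and that of all genes was -0.02.

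Srsf3, the smallest SR protein and an adaptor for mRNA export, had the highest ratio. It was at 300, 310 and 292 CPM in the wild-type monosomes and at 653, 863 and 633 CPM in the high polysomes. The groups did not overlap, and the log2 ratio was 1.24 ± 0.14 (SE, adjusted p = 1.8e-07), higher than in 92.2% of genes tested. Srsf7, a zinc knuckle SR protein that also acts in export, had a log2 ratio of 0.97 ± 0.11 (SE, adjusted p = 1.42e-07). For Srsf1, the founding member of the family, the log2 ratio was 0.86 ± 0.22 (SE, adjusted p = 0.00178). Its libraries ran from 301 to 364 CPM in the monosome and from 507 to 727 CPM in the high polysome. Srsf9 had a smaller log2 ratio of 0.49 ± 0.16 (SE, adjusted p = 0.0125), a call that was lost without wild-type gradient 1.

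Srsf5 and Srsf10 showed the opposite distribution. Srsf5 was at 239, 224 and 240 CPM in the wild-type monosomes and at 59.5, 55.5 and 52.3 CPM in the low polysomes. With the high polysome values given above, its log2 ratio of high polysome to monosome was -2.57 ± 0.15 (SE, adjusted p = 1.07e-11), and 4.35% of genes had a lower one. Srsf10, which represses splicing when it is dephosphorylated, was at 396, 346 and 369 CPM in the monosomes and at 69.7, 108 and 87.5 CPM in the high polysomes. Its log2 ratio was -2.08 ± 0.23 (SE, adjusted p = 1.39e-07), and 7.34% of genes had a lower one. These members were thus 5.93 and 4.23 times more abundant in the monosome than in the high polysome, relative to other genes. Srsf6 had a log2 ratio of -0.51 ± 0.11 (SE, adjusted p = 0.000364), with all high polysome libraries below all monosome libraries.

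In Ddx6 KO cells the same comparison gave 5 higher members, against 35% of genes, and 4 lower members, against 33.6%. Srsf1, Srsf3, Srsf4, Srsf7 and Srsf11 were higher, and Srsf2, Srsf5, Srsf6 and Srsf10 were lower. Srsf9 did not pass the test, at -0.22 ± 0.16 on the log2 scale (SE, adjusted p = 0.228). The lowest ratios were again those of Srsf5, -2.16 ± 0.15, and Srsf10, -1.85 ± 0.23 (log2, SE). The call for Srsf1 was lost without Ddx6 KO gradient 1 and that for Srsf2 without gradient 3.

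In wild-type cells 9 of the 10 members were lower in the low polysome than in the monosome, against 22.8% of genes tested. Srsf9 was the exception and was higher, as were 20.4% of genes. The median log2 ratio of the members was -0.93, and that of all genes was -0.01. For each of the 10 members, the 3 low polysome libraries lay entirely on its side of the 3 monosome libraries. The share of all genes with such a separation was not worked out, so this count has no reference beside it.

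Srsf10 and Srsf5 had the lowest log2 ratios of low polysome to monosome, -2.28 ± 0.23 (SE, adjusted p = 1.87e-07) and -2.07 ± 0.15 (SE, adjusted p = 1.33e-09). Only 1.3% and 1.88% of genes had lower ones. For Srsf2 the low polysome libraries were at 207, 228 and 167 CPM, far below the monosome values above. Its log2 ratio was -1.81 ± 0.13 (SE, adjusted p = 2.16e-09). Srsf6 was at 256, 236 and 249 CPM in the monosomes and at 82.3, 74.2 and 77.8 CPM in the low polysomes, a log2 ratio of -1.66 ± 0.11 (SE, adjusted p = 5.07e-10). Srsf1, Srsf4, Srsf7 and Srsf11 were lower by 1.65- to 2.1-fold, and Srsf3 by 1.39-fold. The call for Srsf3, at -0.47 ± 0.14 on the log2 scale (SE, adjusted p = 0.0102), was lost without wild-type gradient 1 or 3 and with no filter on low counts, and the call for Srsf4 was lost without gradient 3.

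Srsf9, an SR protein with a short RS tail, moved the other way. It was at 262, 263 and 282 CPM in the wild-type monosomes, rose to the low polysome values given above, and was at 485, 337 and 331 CPM in the high polysomes. Its log2 ratio of low polysome to monosome was 1.49 ± 0.16 (SE, adjusted p = 3.77e-07), and 1.43% of genes had a higher one. In Ddx6 KO cells its libraries were at 356, 253 and 317 CPM in the monosome, 484, 655 and 499 CPM in the low polysome and 279, 239 and 271 CPM in the high polysome. The log2 ratio of low polysome to monosome was 0.82 ± 0.16 there (SE, adjusted p = 0.000368).

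In Ddx6 KO cells 5 members were lower in the low polysome than in the monosome, against 20.8% of genes, and Srsf9 was higher, against 20.4%. The lower members were Srsf2, Srsf5, Srsf6, Srsf7 and Srsf10. The median of the members was -0.36 (log2), and that of all genes was -0.01. Srsf1, Srsf3, Srsf4 and Srsf11 had log2 ratios from -0.38 to -0.15 and did not pass the test. The call for Srsf7, at -0.33 ± 0.11 (log2, SE, adjusted p = 0.0184), was lost without Ddx6 KO gradient 1 or 3 and in a fit of the compared groups only.

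**Figure D2:**
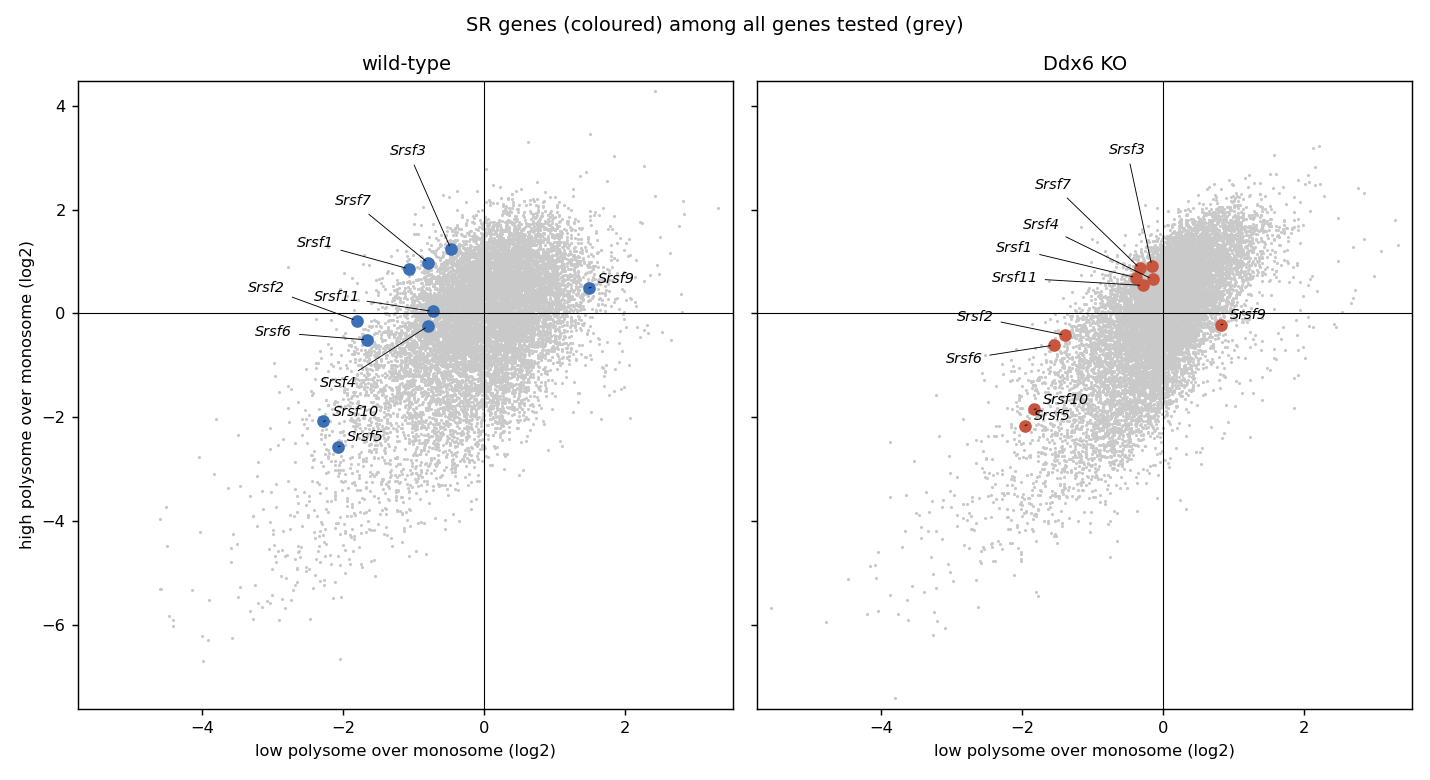
Log2 ratio of low polysome to monosome (horizontal axis) against log2 ratio of high polysome to monosome (vertical axis) for the 12705 genes tested (grey) and the 10 SR genes (coloured), in wild-type (left) and Ddx6 KO (right). In wild-type, 9 members lie left of 0 and Srsf9 lies at 1.49. Srsf5 and Srsf10 lie at the lower left in both genotypes.

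The high polysome was next compared with the low polysome, a comparison added after the data had been seen. In wild-type cells 7 members were higher in the high than in the low polysome, relative to other genes, against 29.5% of genes tested. Srsf5 and Srsf9 were lower, against 32.6%, and Srsf10 did not pass the test. The call for Srsf5 was lost without wild-type gradient 1. The highest log2 ratios were those of Srsf1 (1.93 ± 0.22), Srsf7 (1.77 ± 0.11), Srsf3 (1.71 ± 0.14) and Srsf2 (1.66 ± 0.13; SE). The members Srsf1, Srsf2, Srsf3, Srsf4, Srsf6, Srsf7 and Srsf11 were therefore lower in the low polysome than in both other fractions, a distribution that 8.68% of genes tested shared. Without wild-type gradient 3, Srsf4 was not called in either comparison. Its low polysome library of that gradient was at 32.2 CPM, against 64.7 and 61.4 CPM in gradients 1 and 2. The same library was also the lowest of the group for Srsf1, at 109 CPM against 176 and 195 CPM, and for Srsf10, at 49.7 CPM against 92.7 and 95.9 CPM. Srsf9 had the reverse distribution, higher in the low polysome than in both other fractions, which 10.7% of genes shared.

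In Ddx6 KO cells 7 members again passed the test with a ratio of high to low polysome above 1, against 29.5% of genes. Srsf9 was lower, against 28%, and Srsf5 and Srsf10 did not pass the test. Srsf2, Srsf6 and Srsf7 were lower in the low polysome than in both other fractions, as were 5.07% of genes. Srsf9 was higher there than in both, as were 4.87% of genes. The low polysome library of Ddx6 KO gradient 2 was the lowest of its group for Srsf1, at 144 CPM against 239 and 284 CPM. It was also the lowest for Srsf4, at 42.3 CPM against 57.5 and 62.2 CPM, and for Srsf10, at 37.4 CPM against 70.6 and 75.3 CPM.

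Coding length varied with these ratios across all genes and was set beside them. Genes with up to 500 nt of coding sequence had a median log2 ratio of low polysome to monosome of 0.34 in wild-type cells, genes with 500 to 1000 nt had 0.18, genes with 1000 to 1500 nt had -0.10 and genes with 1500 to 2000 nt had -0.20. The 3380 genes over 2000 nt, a class with no member, had 0.03. The 6 members with 500 to 1000 nt were Srsf1, Srsf2, Srsf5, Srsf7, Srsf9 and Srsf10. In that class 15% of genes were lower in the low polysome and 28.2% were higher. All of these members except Srsf9 were below the median of their class, as were Srsf3, Srsf4, Srsf6 and Srsf11 below those of theirs. Genes annotated with both an NMD and a retained-intron transcript had a median of -0.04 (2725 genes), and genes with neither had 0.08 (4102 genes). The part of length and of isoforms in the members' ratios was not tested.

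**Figure D3:**
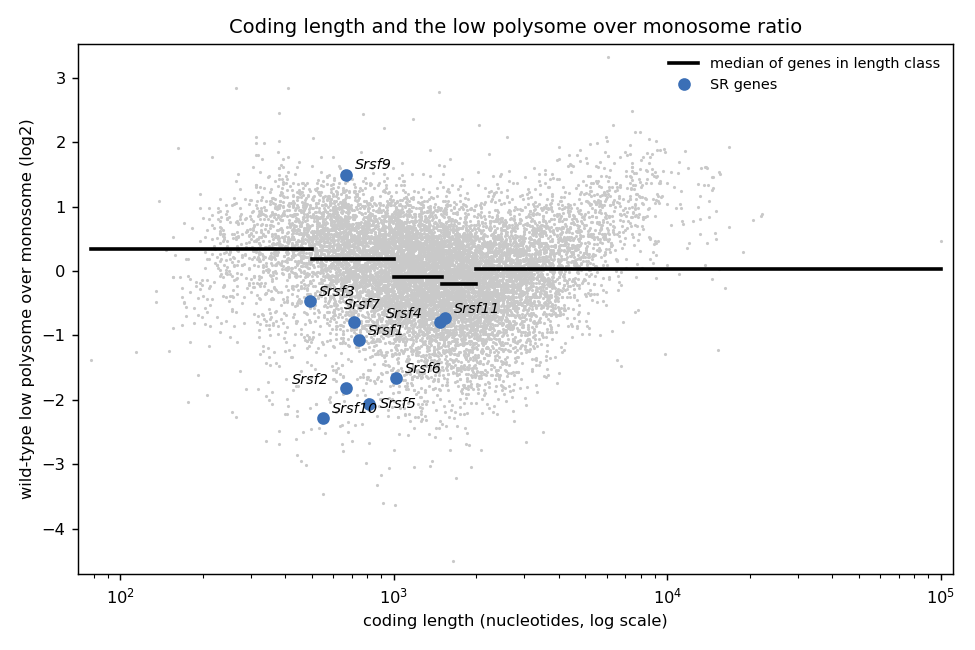
Coding length in nucleotides (horizontal log axis) against the wild-type log2 ratio of low polysome to monosome (vertical axis) for protein-coding genes tested (grey) and SR genes (blue). Black lines are the medians of genes in each length class, which fall from 0.34 to -0.20 up to 2000 nt and are at 0.03 above it, and every member but Srsf9 lies below the line of its class.

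The effect of Ddx6 loss on translation level was tested as the interaction, the Ddx6 KO log2 ratio of high polysome to monosome minus the wild-type one. It passed the test for 2 of the 10 members. Srsf4 was raised, as were 10.7% of genes tested, and Srsf9 was lowered, as were 7.09%. The median of the members was -0.10 and that of all genes was 0.02. A count of 1 in 10 in each direction lies near these shares. Among protein-coding genes the median interaction rose with coding length. It was -0.54 up to 500 nt, -0.34 for 500 to 1000 nt and -0.03 for 1000 to 1500 nt. It was 0.23 for 1500 to 2000 nt and 0.48 above 2000 nt. The part of length in the interactions of the members and of the lists below was not tested.

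Srsf4, one of the larger SR proteins, was at 60.0, 58.6 and 59.9 CPM in the Ddx6 KO monosomes and at 95.1, 106 and 82.7 CPM in the high polysomes. In wild-type high polysomes it was at 70.6, 76.8 and 74.0 CPM. The log2 ratios of single gradients (with 0.5 CPM added) were -0.48, 0.04 and -0.29 in wild-type and 0.66, 0.85 and 0.46 in Ddx6 KO, and the genotypes did not overlap. The interaction was 0.90 ± 0.28 (log2, SE, adjusted p = 0.031). An overlapping gene model on the same strand, A930004J17Rik, held up to 294 counts. The call was lost in 5 of the 6 fits that left out 1 gradient, all but that without wild-type gradient 3, with values from 0.71 to 1.04. It was also lost with scaling by library size alone and with no filter on low counts.

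For Srsf9 the log2 ratios of single gradients were 0.89, 0.36 and 0.23 in wild-type and -0.35, -0.08 and -0.22 in Ddx6 KO, again without overlap. The interaction was -0.71 ± 0.23 (log2, SE, adjusted p = 0.036). It was lost in 4 of the 6 fits without 1 gradient, those without wild-type gradient 1 or 2 or Ddx6 KO gradient 1 or 3, with values from -0.84 to -0.59. Over all alternative fits its adjusted p ran from 0.00728 to 0.111, and that of Srsf4 from 0.00367 to 0.136.

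Srsf11 had an interaction of 0.49 ± 0.18 (log2, SE, adjusted p = 0.0652). With the gradient as a replicate block the adjusted p was 0.0436. Its single gradients were at 0.04, 0.09 and -0.00 in wild-type and at 0.80, 0.36 and 0.44 in Ddx6 KO, without overlap, and the highest of these was the gradient of clone 1. Srsf5, at 0.41 ± 0.21 (log2, SE, adjusted p = 0.173), and Srsf3, at -0.32 ± 0.20 (adjusted p = 0.269), did not pass the test either. The share of all genes whose single gradients did not overlap between genotypes was not worked out. A lack of overlap in a member thus has no reference beside it. The other 5 members, Srsf1, Srsf2, Srsf6, Srsf7 and Srsf10, had interactions from -0.27 to 0.23 and did not pass the test. A value that misses the threshold does not show that the ratio was the same in both genotypes. Srsf1 and Srsf10, which hold an ESCC miRNA site, had interactions of -0.17 ± 0.31 (adjusted p = 0.732) and 0.23 ± 0.33 (adjusted p = 0.668; log2, SE).

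The interaction on the ratio of low polysome to monosome passed the limma-voom test for 0 members, against 2.31% of genes raised and 2.39% lowered. At an unadjusted p under 0.05 there were 6 members, against 20.7% of genes. With the DESeq2 Wald test 2 members, Srsf7 and Srsf9, were called, and with edgeR's quasi-likelihood test 0. The values were positive for 9 members, from 0.11 to 0.69, and negative for Srsf9, at -0.67 ± 0.23 (log2, SE, adjusted p = 0.092). The median of the members was 0.43 and that of all genes was 0.02.

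The interaction on the ratio of high to low polysome, added after the data had been seen, was lowered for 2 members, against 1.03% of genes, and raised for 0, against 3.39%. These members were Srsf2, at -0.69 ± 0.19 (SE, adjusted p = 0.0396), and Srsf7, at -0.57 ± 0.15 (SE, adjusted p = 0.0369). Each call was lost in 5 of the 6 fits without 1 gradient, all but that without Ddx6 KO gradient 1, and in a fit of the compared groups only. Srsf7 was at 166, 167 and 153 CPM in the wild-type low polysomes and at 218, 252 and 228 CPM in the Ddx6 KO ones. Its high polysome libraries overlapped between the genotypes, at 605, 537 and 514 CPM in wild-type and 536, 565 and 503 CPM in Ddx6 KO. Srsf2 showed the larger difference in the high polysome, where it was at 616, 727 and 559 CPM in wild-type and 442, 496 and 397 CPM in Ddx6 KO. For Srsf3 the value was -0.63 ± 0.20 (log2, SE, adjusted p = 0.0661), and with the gradient as a replicate block the adjusted p was 0.0371. Srsf1 was at -0.86 ± 0.31 (log2, SE, adjusted p = 0.108). The interaction tests share libraries and are not independent of each other.

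**Figure D4:**
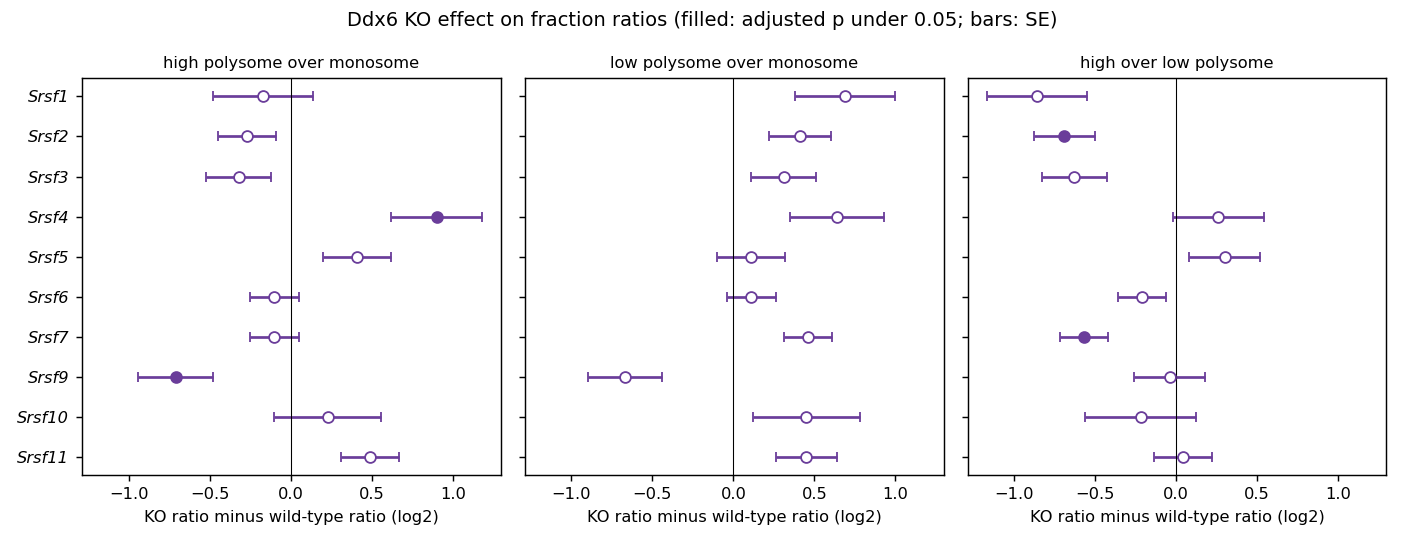
Effect of Ddx6 loss on the fraction ratios of each SR gene (Ddx6 KO log2 ratio minus wild-type log2 ratio, horizontal axis; bars, SE). Filled points passed an adjusted p of 0.05. Srsf4 at 0.90 and Srsf9 at -0.71 passed for high polysome over monosome, 0 members passed for low polysome over monosome, and Srsf2 at -0.69 and Srsf7 at -0.57 passed for high over low polysome.

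Abundance in Ddx6 KO was compared with wild-type within each fraction and over the average of the fractions, which was tested as a single contrast. Over the average, 7 members were lowered, against 31.5% of genes tested, and Srsf7 was raised, as were 30.6%. The lowered members were Srsf2, Srsf3, Srsf5, Srsf6, Srsf9, Srsf10 and Srsf11, and Srsf1 and Srsf4 did not pass the test. The changes were small, with a median of -0.24 for the members and -0.02 for all genes on the log2 scale. Fewer cells of a kind and less RNA per cell could not be told apart in these bulk libraries, and each value is relative to other genes within a fraction.

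Srsf10 fell most, by 0.60 ± 0.13 on the log2 scale (SE, adjusted p = 0.00069). Its Ddx6 KO monosome libraries were at 209, 207 and 211 CPM, all below the wild-type ones, and its high polysome libraries were at 67.6, 53.8 and 53.1 CPM, again all below. In the low polysome the genotypes overlapped, at 70.6, 37.4 and 75.3 CPM in Ddx6 KO. Srsf11, at -0.30 ± 0.08 (log2, SE, adjusted p = 0.00148), was lower in the monosome, where it was at 138, 178 and 172 CPM in Ddx6 KO against 233, 259 and 254 CPM in wild-type. Srsf6 was at -0.23 ± 0.06 (log2, SE, adjusted p = 0.00275). The calls for Srsf6, Srsf10 and Srsf11 held in every fit without 1 gradient, while other calls did not. That for Srsf5 was lost without Ddx6 KO gradient 2, that for Srsf9 without wild-type gradient 1, and that for Srsf3 without wild-type gradient 2 or Ddx6 KO gradient 1. The call for Srsf2 was lost without wild-type gradient 1 or 2 or Ddx6 KO gradient 1, and that for Srsf7 without wild-type gradient 3 or Ddx6 KO gradient 2 or 3. For Srsf2, at -0.19 ± 0.08 (log2, SE, adjusted p = 0.0376), the adjusted p with the gradient as a replicate block was 0.0509. Srsf7 was raised by 0.18 ± 0.06 (log2, SE, adjusted p = 0.0164).

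Calls within single fractions are given next, and the interactions above are the tests of a difference between fractions. In the monosome 4 members were lowered, against 20.1% of genes, and 0 were raised, against 18.6%. These were Srsf10 (-0.82 ± 0.23), Srsf11 (-0.62 ± 0.13), Srsf4 (-0.55 ± 0.20) and Srsf5 (-0.45 ± 0.14; log2, SE), with adjusted p from 0.000897 to 0.0389. In the low polysome Srsf7 was raised (0.52 ± 0.11, adjusted p = 0.000518), as were 23.4% of genes, and Srsf9 was lowered (-0.49 ± 0.16, adjusted p = 0.0152), as were 24.3%. In the high polysome 5 members were lowered, against 21.1% of genes, and 0 were raised, against 25.3%. They were Srsf10 (-0.60 ± 0.24), Srsf3 (-0.56 ± 0.14), Srsf9 (-0.53 ± 0.16), Srsf2 (-0.51 ± 0.13) and Srsf6 (-0.34 ± 0.11; log2, SE). Srsf3 was at 435, 514 and 498 CPM in the Ddx6 KO high polysomes, all below wild-type. Srsf4 was higher in all Ddx6 KO high polysome libraries than in wild-type, at 0.35 ± 0.19 (log2, SE, adjusted p = 0.135). Without wild-type gradient 1 the monosome calls were 2, Srsf10 and Srsf11. The monosome call for Srsf5 was also lost without wild-type gradient 3, and that for Srsf4 without any 1 of the Ddx6 KO gradients. Without wild-type gradient 2 or Ddx6 KO gradient 3 the high polysome calls were 3, Srsf2, Srsf3 and Srsf9, and without Ddx6 KO gradient 2 the high polysome call for Srsf10 was lost. The low polysome call for Srsf9 was lost without wild-type gradient 1 or Ddx6 KO gradient 1 or 3. A low polysome call was gained for Srsf1 without wild-type gradient 2 or Ddx6 KO gradient 2. Srsf5 was also called there without Ddx6 KO gradient 1, and Srsf10 without wild-type gradient 3.

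The libraries also group the members by profile, which is described here with no test. Across the 18 libraries, which share fractions and gradients, Pearson's r of log2 CPM was 0.963 between Srsf2 and Srsf6, 0.945 between Srsf5 and Srsf10, and 0.903 between Srsf3 and Srsf7. Srsf9 was opposed to the mean profile of the family, with r = -0.788, and Srsf2 was nearest to it, with r = 0.976. The mean includes the member itself, which raises r for members but not for genes outside the family. Outside the family, the genes whose profile was most like that mean were Nsl1 (r = 0.961), Zfp598 (r = 0.954), Nprl3 (r = 0.939), Pcgf6 (r = 0.939) and Rpl7 (r = 0.937), each over 18 libraries.

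The proteins that modify, import or work beside SR proteins were described from fixed lists. Of 9 kinases and import factors, Clk1, Clk2, Clk3 and Clk4 were lower in the wild-type low polysome than in the monosome. Srpk2 was higher. Of all genes, 22.8% were lower and 20.4% were higher. The rest of the list, Srpk1, Prpf4b, Dyrk1a and Tnpo3, passed in neither direction, with Srpk1 at -0.26 (log2). The called genes were named after their values had been seen. The effect of Ddx6 loss on translation level passed the test for 1 of the 9, against 10.7% of all genes raised and 7.09% lowered. This gene was Tnpo3, which carries SR proteins into the nucleus, raised by 0.72 ± 0.19 (log2, SE, adjusted p = 0.0135). Tnpo3 was at 113, 105 and 141 CPM in wild-type monosomes and at 158, 155 and 152 CPM in Ddx6 KO ones. In the high polysomes it was at 161, 158 and 137 CPM in wild-type and 338, 300 and 335 CPM in Ddx6 KO, without overlap.

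Of 16 SR-related splicing proteins tested, 4 rose in translation level and 0 fell, against the same 10.7% and 7.09% of all genes. Their median interaction was 0.34 and that of all genes was 0.02. The largest of these was that of Snrnp70, a protein of the U1 particle, at 0.93 ± 0.30 (log2, SE, adjusted p = 0.0388). Its monosome libraries were at 891, 753 and 894 CPM in wild-type and 545, 522 and 507 CPM in Ddx6 KO. Tra2a and Tra2b, SR-like regulators of alternative splicing, had interactions of 0.14 ± 0.16 (adjusted p = 0.592) and 0.34 ± 0.19 (adjusted p = 0.228; log2, SE). Tra2a was also lower in the high polysome, with a log2 ratio of high polysome to monosome of -1.39 ± 0.12 in wild-type (SE, adjusted p = 2.47e-09). The wild-type libraries of Tra2a were at 248, 261 and 239 CPM in the monosome and 102, 87.1 and 96.1 CPM in the high polysome. Tra2b fell in Ddx6 KO over the average of the fractions, by 0.53 ± 0.08 on the log2 scale (SE, adjusted p = 8.77e-06). Of the 16, 6 were lower in the wild-type low polysome than in the monosome and 3 higher, against 22.8% and 20.4% of genes. Their median log2 ratio was -0.06.

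Of 26 hnRNPs, which often oppose SR proteins in splice site choice, 12 were lower and 2 higher in the wild-type low polysome than in the monosome, against 22.8% and 20.4% of all genes. Their median log2 ratio was -0.36, and that of all genes was -0.01. In translation level 7 rose and 1 fell with Ddx6 loss, against 10.7% and 7.09% of all genes. The median interaction was 0.30, against 0.02. Hnrnpa3 rose most, by 1.03 ± 0.27 (log2, SE, adjusted p = 0.0125), and was at 24.3, 23 and 24.2 CPM in wild-type monosomes and 9.95, 12.8 and 13.3 CPM in Ddx6 KO ones. Hnrnpab fell by 0.68 ± 0.21 on the log2 scale (SE, adjusted p = 0.0311). Its high polysome libraries were at 2153, 2516 and 2134 CPM in wild-type and 1737, 1897 and 1556 CPM in Ddx6 KO.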

How the data were processed

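The deposited values were raw read counts per gene, made by the authors from QuantSeq 3′ FWD libraries. Per the study's methods, the sample records and the file headers, the tools were cutadapt 1.14, STAR 2.5.3a (mm10, unique alignments) and featureCounts 1.5.3. Counting was strand-specific on Gencode M14 basic exons. Unique alignment undercounts genes with near-identical copies, and same-strand gene models overlap Srsf4 and Srsf11. The deposited gene length column was not used in any value. Symbols, coordinates and coding sequences came from Gencode M21 (51274 of 51467 identifiers matched), with the transcript of the best APPRIS annotation per gene. Spike-in sequences were left out.

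Genes with at least 3 CPM in at least 3 libraries (12705 genes, 99.6% of counts) were TMM-scaled (edgeR 4.0.16) and fitted with limma-voom (limma 3.58.1 in R 4.3.3) to all 18 libraries, with a mean for each of the 6 groups. Calls were made at an adjusted p under 0.05, two-sided. The scripts were tested on simulated data. DESeq2 1.42.0, edgeR's quasi-likelihood test, other scalings, no filter, replicate blocks and single gradients left out were the alternatives. Fractions of a genotype with the same number were taken as 1 gradient and lysate, which the labels do not name. Their deviations from the group means correlated at -0.181 to 0.485 (18 pairs, median 0.0897). Same-numbered gradients of the other genotype share only a number. The labels do not say whether gradients were separate cultures, so p-values measure the spread between gradients. Named genes were the members, Ddx6, Tra2a, Tra2b, the most raised and most lowered translation level in each list, and the 5 most similar profiles. The kinases and import factors were also named by their wild-type low polysome calls. ESC markers were named by their calls over the average, and A930004J17Rik for its overlap with Srsf4. The members and lists were chosen with earlier results of these data known.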

Additional observations from a re-analysis of the deposited data

Results flagged for a closer look

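Among the SR genes 4 differences between the genotypes passed the interaction test and are set apart here. For high polysome over monosome they were Srsf4, at 0.90, and Srsf9, at -0.71 on the log2 scale. For high over low polysome they were Srsf2, at -0.69, and Srsf7, at -0.57. Each was lost in 4 or 5 of the 6 fits that left out 1 gradient, and the cause was not tested.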

How the results depend on the processing

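Of the 209 counts of called members recomputed under an alternative, 187 stayed within 1.5 times the reported count and 22 did not. For the Ddx6 effect on high polysome over monosome (2 calls), scaling by library size alone gave 1, no filter gave 1, and leaving out a gradient gave 0 to 2. For low polysome over monosome (0 calls), library size alone gave 1, the DESeq2 Wald test gave 2, and leaving out a gradient gave 0 to 1. For high over low polysome (2 calls), DESeq2 gave 4, the compared groups alone gave 0, and leaving out a gradient gave 0 to 2. Ddx6 KO against wild-type gave 2 to 4 calls in the monosome, 1 to 3 in the low polysome and 3 to 5 in the high polysome without 1 gradient. The cause was not tested.

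With the gradient as a replicate block the Ddx6 effect gave 3 calls for high polysome over monosome and 3 for high over low polysome, and the average of the fractions gave 7 in place of 8. The block changed no other count of calls. The values that changed sign under an alternative had not passed the test, nor did they after the change. For the Ddx6 effect, without 1 gradient, Srsf1 ranged from -0.36 to 0.03 and Srsf10 from -0.06 to 0.43 (high polysome over monosome), and Srsf5 from -0.06 to 0.18 (low polysome over monosome). For Ddx6 KO against wild-type, Srsf3 ranged from -0.04 to 0.17 and Srsf4 from -0.23 to 0.28 in the low polysome, Srsf5 from -0.15 to 0.05 in the high polysome, and Srsf1 from -0.18 to 0.03 and Srsf4 from -0.13 to 0.03 over the average, where Srsf4 was also at 0.01 with no filter. For high over low polysome, Srsf10 ranged from -0.11 to 0.56 in wild-type and from -0.29 to 0.27 in Ddx6 KO. The Ddx6 effect on that ratio ranged from -0.03 to 0.59 for Srsf4, from -0.16 to 0.16 for Srsf9, from -0.60 to 0.09 for Srsf10 and from -0.08 to 0.10 for Srsf11, which was also at -0.01 with DESeq2 size factors or library size alone, -0.02 with no filter and -0.00 with the DESeq2 Wald test. Only 1 of the 3 Ddx6 KO gradients came from clone 1.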
